A study of Mus musculus and Homo sapiens with 27 samples.

Results

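The 9 genes Thbs1, Ccn1, Ccn2, Hbegf, Areg, Ereg, Vegfa, Plaur and Lif are induced early after a stimulus and encode proteins that are secreted or displayed at the cell surface. They were taken by name from a count table of 56691 mouse features, where Ccn1 and Ccn2 also carry the older names Cyr61 and Ctgf. Of the 9 genes, 8 had counts and passed a filter on low counts that 11676 features passed. The other, Areg, had 0 counts in every library and was left out of the tests.

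The series holds 27 RNA-seq libraries in 3 sets of 9, from the mouse colon carcinoma line MC38 and the human embryonic kidney line HEK293T, and the genes were followed in the MC38 set whose titles carry "12G". All cells stably carried a construct named LAP, located at what the labels call ERM. The labels spell out neither LAP, ERM nor 12G. Labelling lasted 15 to 60 min, with furimazine (50 µM), the substrate of the NanoLuc luciferase, and a compound called PA (10 mM). RNA was then coupled to biotin by click chemistry and pulled down on streptavidin beads. Label_Enrich is the pulled-down RNA of labelled cells, Label_Input the RNA of labelled cells kept back before the pull-down, and NonLabel_Enrich the pulled-down RNA of cells not labelled, with 3 libraries each. What the unlabelled cells were given instead is not stated, and no unlabelled input was among the libraries used here. In any comparison with NonLabel_Enrich, an effect of labelling on the cells' own RNA therefore cannot be told apart from the capture. The labels do not say whether libraries came from separate cultures, so p-values measure the spread between these libraries only.

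Messages of secreted and membrane proteins are translated on ribosomes docked at the endoplasmic reticulum (ER), to which a hydrophobic stretch near the start of the new protein directs them. Early-response messages are made within minutes of a stimulus such as serum, growth factors or stress and are rapidly degraded, in many cases through AU-rich elements with the core ATTTA in the 3′ UTR. The genes described here were chosen as combining both properties, though neither induction nor decay was measured. The best-known early-response genes, such as the Fos, Jun and Egr families, instead encode nuclear proteins translated in the cytosol.

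The hydrophobic stretch is visible in the coding sequence of each of the 9 genes. In the first 90 coding bases of the members with most counts, capitals mark the 8 codons with the highest mean hydropathy on the Kyte-Doolittle scale:
Ccn1: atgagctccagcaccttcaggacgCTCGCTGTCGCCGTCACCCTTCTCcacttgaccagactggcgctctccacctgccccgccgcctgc
Thbs1: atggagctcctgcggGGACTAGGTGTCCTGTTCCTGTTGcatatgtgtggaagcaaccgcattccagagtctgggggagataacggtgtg
Vegfa: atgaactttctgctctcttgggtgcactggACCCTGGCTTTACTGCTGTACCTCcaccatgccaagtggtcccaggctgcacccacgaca
Plaur: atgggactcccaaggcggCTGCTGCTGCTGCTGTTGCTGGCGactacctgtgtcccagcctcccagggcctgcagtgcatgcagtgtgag
The sequences are written 5′ to 3′ on the coding strand of the GENCODE M21 transcripts (GRCm38), and the genes lie on chromosomes 3, 2, 17 and 7 respectively. The counts were made on GRCm39, per the submitters' processing notes, so no coordinates are given. The window lies at codons 9 to 16 in Ccn1, 6 to 13 in Thbs1, 11 to 18 in Vegfa and 7 to 14 in Plaur. Over the 9 genes the highest mean hydropathy ran from 2.35 in Vegfa to 3.55 in Plaur, against a median of 1.31 over the 10524 tested genes with a complete reading frame.

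**Figure D1:**
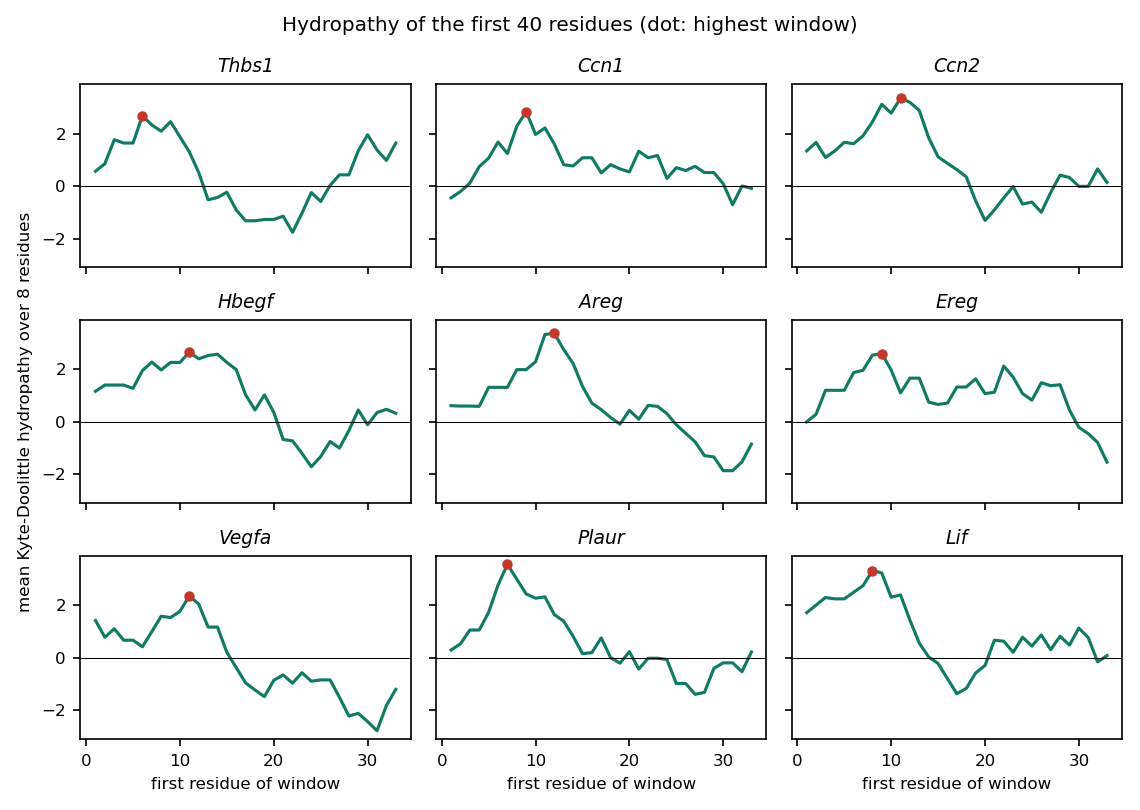
Mean Kyte-Doolittle hydropathy (vertical axis, scale units) of windows of 8 residues against the first residue of the window, for the first 40 residues encoded by each of the 9 genes. The dot marks the highest window, which starts between residues 6 and 12 in all 9 genes and lies at 2.35 to 3.55.

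For the second property, copies of ATTTA were counted in the 3′ UTR. The 9 genes hold 2 to 9 copies of ATTTA each, at a density of 1.24 per kb in Ccn2 to 15.8 per kb in Areg. For Ccn2 the transcript used, its longest with a complete reading frame, encodes 293 residues, fewer than the usual full-length protein, which bears on its density and on its level per kb. The Vegfa transcript used encodes 146 residues and is not the one with its longest reading frame, which bears on the same values for Vegfa. These 30-base stretches, the richest in ATTTA around a copy in each of 4 genes, show it in capitals on the same strand and build, overlapping copies included:
Ccn1: tcagtgaagagaATTTATTTAtaaaattaa
Thbs1: tgtagatatgctATTTAaataATTTAtcag
Vegfa: atatttgttatcATTTATTTAttggtgcta
Lif: aaaggggcctttATTTAttATTTAaaactt
Ccn1 had 5 copies in a 3′ UTR of 690 bases, Thbs1 6 in 2104, Vegfa 9 in 1865 and Lif, on chromosome 11, 7 in 3180. The motif was searched on the message strand only, and 71.2% of the 10524 tested genes with a reading frame hold at least 1 copy. Over these 10524 genes the median density was 1.34 per kb, above that of Ccn2, leaving out 3′ UTRs too short for a density. A copy is a match of letters and does not show that the element acts.

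Each library held 13127181 to 18614808 counts, but a feature with the ID ENSMUSG00000119584 took 80.5% to 80.9% of them in Label_Input, 58.5% to 59.8% in Label_Enrich and 63.3% to 66.9% in NonLabel_Enrich. Without it and Lars2, the second most abundant feature, 1686731 to 2058350 counts were left in Label_Input and 3660109 to 6022322 in the captured libraries, so levels in the input are the least precise. Levels are given in CPM, a gene's count relative to the TMM-scaled size of its library. The labelled cell type was checked against its markers. Of 9 epithelial markers, among them Epcam and Krt8, 8 were under 1 CPM in every library and 3 had 0 counts, and their summed level was 0.843 to 1.13 CPM in Label_Enrich, 1.29 to 1.64 in Label_Input and 1.25 to 1.35 in NonLabel_Enrich. The 6 mesenchymal markers summed to 838 to 905 CPM. Most of this was Vim, with a mean of 629 CPM, while Acta2, at 0.486 CPM, did not pass the low-count filter. The 4 blood markers summed to at most 2.64 CPM and 3 endothelial markers to at most 0.371 CPM. The epithelial messages by which a colon carcinoma line would be recognised were thus at or near 0, and the part of any other cell type in the results was not tested. In these bulk libraries fewer cells with a message and less message per cell cannot be told apart.

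Ccn1 and Hbegf were lower in the labelled capture than in both other groups, while Thbs1 and Vegfa were lower than in the unlabelled capture only. Plaur, Ccn2, Ereg and Lif differed in no comparison at an adjusted p under 0.05. None of the 8 genes was higher in Label_Enrich than in NonLabel_Enrich. The genes are described next by the role of their proteins.

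**Figure D2:**
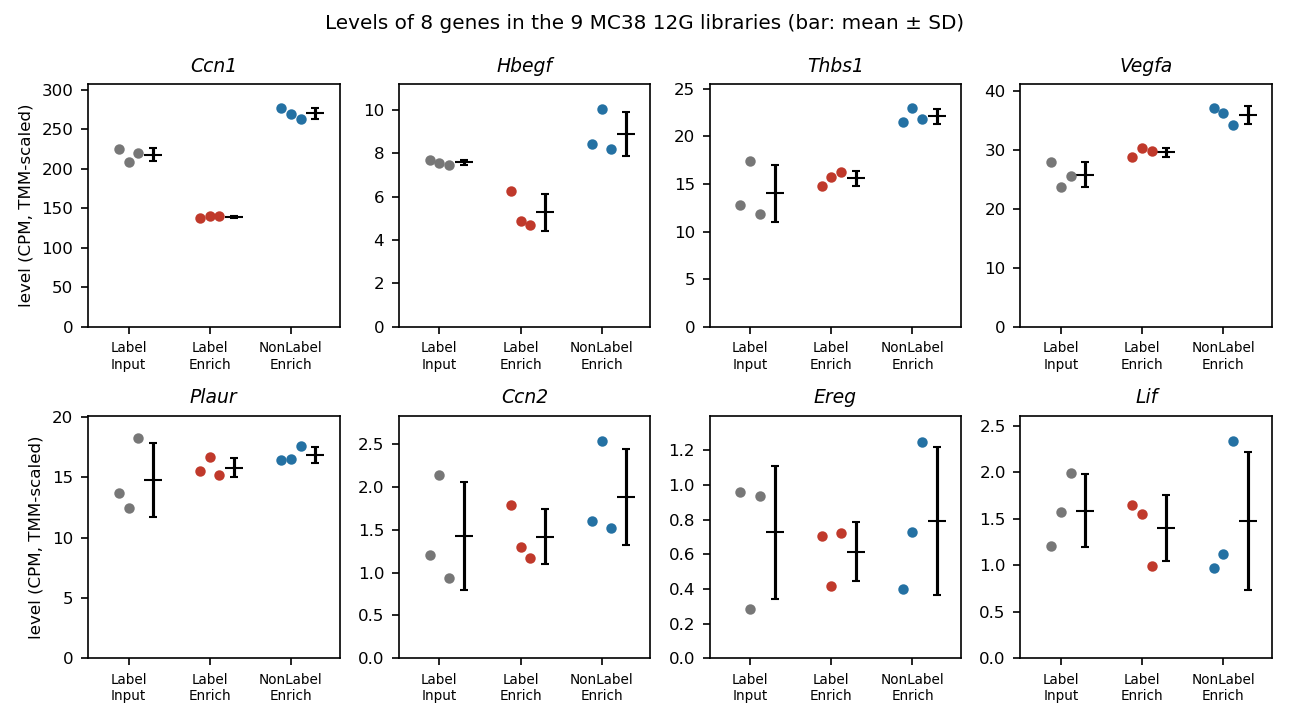
Level in CPM (vertical axis, linear, from 0, with its own scale in each panel) of the 8 genes with counts in the 3 libraries each of Label_Input, Label_Enrich and NonLabel_Enrich. Points are libraries and the black bars are the mean ± SD (n = 3). Ccn1 and Hbegf sit lowest in Label_Enrich, and Thbs1 and Vegfa sit highest in NonLabel_Enrich.

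Ccn1 encodes a matricellular protein, a secreted protein that signals from the extracellular matrix by binding integrins. It was by far the most abundant of the 9 messages. Its level was 225, 209 and 219.8 CPM in the Label_Input libraries. It was 138, 140.5 and 139.9 CPM in Label_Enrich and 277, 269.9 and 263 CPM in NonLabel_Enrich. The 3 groups did not overlap, and the labelled capture held the lowest 3 of the 9 values. Against the input, Ccn1 was at 0.639 times the level in Label_Enrich, a log2 fold change of -0.65 ± 0.04 (SE, n = 3 per group; edgeR adjusted p = 9.97e-20). Against the unlabelled capture it was at 0.516 times the level, a log2 fold change of -0.95 ± 0.04 (edgeR adjusted p = 4.47e-28), and 1.04% of all tested features had a lower log2 fold change. The unlabelled capture itself exceeded the input by 0.31 ± 0.04 (edgeR adjusted p = 5.73e-08).

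Thbs1 encodes thrombospondin-1, a large matrix glycoprotein that binds CD47 and integrins and inhibits angiogenesis. Its level was 12.7, 17.4 and 11.8 CPM in Label_Input. In Label_Enrich it was 14.8, 15.7 and 16.3 CPM, and in NonLabel_Enrich 21.5, 23.0 and 21.8 CPM. The input libraries spanned the whole range of the labelled capture, and the unlabelled capture lay above all 6 others. Label_Enrich against Label_Input gave a log2 fold change of 0.17 ± 0.10 (edgeR adjusted p = 0.207), which passed the threshold when Label_Input replicate 2 was left out (0.34, edgeR adjusted p = 0.0120) or when no low-count filter was used (0.27, edgeR adjusted p = 0.0419), with log2 fold changes of 0.0266 to 0.344 and adjusted p of 0.0120 to 0.902 over all alternatives. Against NonLabel_Enrich it fell by 0.51 ± 0.07 (edgeR adjusted p = 1.52e-07). NonLabel_Enrich exceeded Label_Input by 0.68 ± 0.10 (edgeR adjusted p = 4.29e-08), more than for any other of the 8 genes.

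Ccn2, the closest relative of Ccn1 in the list, was barely detected, with 244 counts over the 9 libraries against 30262 for Ccn1. It stood at 1.20, 2.14 and 0.936 CPM in Label_Input, 1.79, 1.30 and 1.17 CPM in Label_Enrich, and 1.60, 2.53 and 1.52 CPM in NonLabel_Enrich. All 3 groups overlapped. The log2 fold changes were 0.06 ± 0.34 for Label_Enrich against Label_Input, -0.38 ± 0.25 for Label_Enrich against NonLabel_Enrich and 0.44 ± 0.33 for NonLabel_Enrich against Label_Input, and none passed the threshold. At 8 to 53 counts per library, a difference of the size seen for Ccn1 could not be resolved with the same precision. Thbs1, Ccn2 and Ereg each have 1 annotated gene on the opposite strand that overlaps them. No source used here says whether the counting used strand, so reads of such a pair cannot be told apart.

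Other matricellular genes were counted for comparison, 7 of 10 past the low-count filter. Against the input, 3 were higher in Label_Enrich and 1 lower, and against the unlabelled capture 4 were higher and 0 lower, with median log2 fold changes of 0.38 and 0.24. Over the alternatives, 2 to 4 were higher than the input, and the lower call was lost with no low-count filter and without Label_Enrich replicate 1 or 3 or Label_Input replicate 1 or 3. Sparc, a collagen-binding matrix glycoprotein, was at 288.8 ± 4.14 CPM in Label_Enrich, 222 ± 4.48 in Label_Input and 244 ± 2.43 in NonLabel_Enrich (n = 3 each), and was called higher in Label_Enrich in both comparisons. Spp1, which encodes osteopontin, exceeded the unlabelled capture by 0.52 ± 0.05 (edgeR adjusted p = 8.70e-15) and Thbs3 by 0.44 ± 0.11 (edgeR adjusted p = 0.00190). Ccn3, the most abundant that passed in no comparison, had 0.06 ± 0.19. Of 8 measured receptors of thrombospondin and CCN proteins, 7 were higher and 0 lower against the input, and 6 higher and 0 lower against the unlabelled capture. Over the alternatives, 5 to 6 were higher than the unlabelled capture. The unlabelled capture itself was higher than the input for 7 and lower for 1, with a median of 0.23. The integrin chain Itgb1 exceeded the unlabelled capture by 0.63 ± 0.04 (edgeR adjusted p = 1.49e-19), Itgb5 by 0.38 ± 0.06 (edgeR adjusted p = 1.39e-06) and Lrp1, an endocytic receptor, by 0.19 ± 0.04 (edgeR adjusted p = 0.000299).

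Hbegf encodes heparin-binding EGF-like growth factor, made as a membrane-anchored precursor and shed as a ligand of the EGF receptor and ERBB4. Its level was 7.69, 7.58 and 7.49 CPM in Label_Input. In Label_Enrich it was 6.27, 4.91 and 4.70 CPM, and in NonLabel_Enrich 8.45, 10.1 and 8.19 CPM. As for Ccn1, the 3 groups did not overlap and the labelled capture was the lowest. Label_Enrich fell below Label_Input by 0.50 ± 0.15 on the log2 scale (edgeR adjusted p = 0.00656), a call lost when no low-count filter was used (-0.40, edgeR adjusted p = 0.0558; alternatives between 0.00123 and 0.0558). Against NonLabel_Enrich it fell by 0.73 ± 0.12 (edgeR adjusted p = 1.64e-06). NonLabel_Enrich against Label_Input had 0.23 ± 0.14 (edgeR adjusted p = 0.237), which did not pass although the libraries did not overlap.

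The other EGF-family members of the list, Areg (amphiregulin) and Ereg (epiregulin), are likewise made as membrane-anchored precursors and bind the EGF receptor. Areg had 0 counts in all 9 libraries, which allows up to 3 counts per library, or 0.101 to 0.136 CPM in Label_Enrich, 0.351 to 0.429 in Label_Input and 0.163 to 0.171 in NonLabel_Enrich. Ereg had 2 to 23 counts per library. It was at 0.962, 0.286 and 0.936 CPM in Label_Input, 0.708, 0.419 and 0.722 CPM in Label_Enrich, and 0.400, 0.732 and 1.25 CPM in NonLabel_Enrich. The groups overlapped throughout, with log2 fold changes of -0.28 ± 0.47, -0.36 ± 0.37 and 0.09 ± 0.47 in the order Label_Enrich against Label_Input, Label_Enrich against NonLabel_Enrich and NonLabel_Enrich against Label_Input.

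Hbegf was the only EGF-family ligand of those measured with a called difference. Of 7 other EGF-family ligands, 2 passed the low-count filter and neither differed. Nrg1, a ligand of ERBB3 and ERBB4, was at 7.91 ± 0.733 CPM in Label_Enrich, 8.35 ± 0.460 in Label_Input and 8.54 ± 0.674 in NonLabel_Enrich, and Egf had a log2 fold change of 0.00 ± 0.36 between the captures. Of 5 measured ERBB receptors and shedding factors, 3 were higher and 0 lower in Label_Enrich against each of the other groups. The receptor Erbb2 exceeded the unlabelled capture by 0.42 ± 0.08 (edgeR adjusted p = 7.44e-05). The sheddases Adam10 and Adam17, which cut EGF-family precursors at the cell surface, exceeded it by 0.44 ± 0.08 (edgeR adjusted p = 2.25e-05) and 0.28 ± 0.07 (edgeR adjusted p = 0.00112). Rhbdf1, an ER-resident partner of Adam17, had 0.07 ± 0.07. Egfr itself, with a mean of 0.243 CPM, did not pass the filter.

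Vegfa encodes vascular endothelial growth factor A, the main secreted signal for vessel growth. Its level was 28.0, 23.7 and 25.6 CPM in Label_Input. It was 28.8, 30.3 and 29.8 CPM in Label_Enrich and 37.1, 36.4 and 34.3 CPM in NonLabel_Enrich. The groups did not overlap, but the lowest Label_Enrich library lay close to the highest Label_Input library. Against the input Vegfa was higher by 0.19 ± 0.07 (edgeR adjusted p = 0.0409). This call was lost when Label_Enrich replicate 2 or 3 or Label_Input replicate 2 or 3 was left out, under a stricter low-count filter and with the counts of the 3G set, where the edgeR adjusted p reached 0.0847 and 0.189, and the value was 0.30 with no low-count filter. Over all alternatives the adjusted p lay between 0.00175 and 0.214. Against the unlabelled capture Vegfa fell by 0.28 ± 0.06 (edgeR adjusted p = 0.000305), and the unlabelled capture exceeded the input by 0.47 ± 0.07 (edgeR adjusted p = 4.40e-07). Of 6 measured other VEGF ligands and receptors, Nrp2, a co-receptor, was the only one called between the captures, at 0.34 ± 0.05 higher in Label_Enrich (edgeR adjusted p = 2.26e-08). Vegfb, a ligand of the receptor Flt1, was lower in Label_Enrich than in the input, at -0.29 ± 0.11 (edgeR adjusted p = 0.0286). That call was lost in 6 of 17 alternatives, namely DESeq2, no low-count filter, the 3G counts and leaving out Label_Enrich replicate 1 or 3 or Label_Input replicate 1 (adjusted p of 0.0135 to 0.321 over all 17). Vegfd and Nrp1 were called in no comparison.

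Plaur encodes the urokinase receptor, which is held at the cell surface by a glycolipid anchor and focuses plasminogen activation there. Its level was 13.7, 12.4 and 18.3 CPM in Label_Input. It was 15.5, 16.7 and 15.2 CPM in Label_Enrich and 16.4, 16.5 and 17.6 CPM in NonLabel_Enrich. All groups overlapped, and the widest spread was among the input libraries, where replicate 3 stood above every other library of the 9. The log2 fold changes were 0.08 ± 0.10 for Label_Enrich against Label_Input (edgeR adjusted p = 0.598), -0.09 ± 0.08 against NonLabel_Enrich (edgeR adjusted p = 0.444) and 0.17 ± 0.10 for NonLabel_Enrich against Label_Input (edgeR adjusted p = 0.197). Without Label_Input replicate 3 the last of these was 0.36 and passed the threshold (edgeR adjusted p = 0.0117; alternatives between 0.0117 and 0.668). Plaur was measured at 2456 counts in all, close to the 2690 of Thbs1, whose difference between the captures was called. In the rest of the urokinase system, the tissue activator Plat was higher in Label_Enrich than in NonLabel_Enrich by 0.47 ± 0.17 (edgeR adjusted p = 0.0392), a call lost in 8 of 16 alternatives, namely DESeq2, the 3G counts and leaving out any of the 6 libraries compared (adjusted p of 0.0300 to 0.225 over all 16). Plau, the ligand of Plaur, averaged 0.701 CPM and was not called.

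Lif encodes leukaemia inhibitory factor, a cytokine of the interleukin-6 family that signals through Lifr and Il6st (gp130). It was at 1.20, 1.57 and 1.99 CPM in Label_Input, 1.65, 1.55 and 0.993 CPM in Label_Enrich, and 0.971, 1.13 and 2.33 CPM in NonLabel_Enrich, from 10 to 49 counts per library. The groups overlapped in all 3 comparisons. The log2 fold changes were -0.17 ± 0.33, -0.07 ± 0.27 and -0.10 ± 0.35 in the order used for Ereg. Of 5 measured family members, Il6st was higher in Label_Enrich than in the unlabelled capture by 0.19 ± 0.06 (edgeR adjusted p = 0.0117) and the cytokine Clcf1 lower, at -0.44 ± 0.14 (edgeR adjusted p = 0.0170). Both calls were lost with the 3G counts and without Label_Enrich replicate 1 or 3 or NonLabel_Enrich replicate 3, that of Clcf1 also without NonLabel_Enrich replicate 1. Over 17 alternatives the adjusted p ran from 0.00381 to 0.0848 for Il6st and from 0.00612 to 0.141 for Clcf1. Lifr averaged 0.928 CPM and was not called, nor was Il6ra.

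Counted together, the 8 measured genes lay toward lower values in the labelled capture when set against the unlabelled capture. In Label_Enrich against NonLabel_Enrich, 0 were called higher and 4 lower, where 10.4% of all tested features were called higher and 9.63% lower. All 8 log2 fold changes were below 0, with a median of -0.37 against 0.00 over all tested features, though Ereg, Lif and Plaur turned above 0 under some alternatives, to at most 0.12, 0.43 and 0.0213. The 4 called genes were also the 4 whose libraries did not overlap, as 34.6% of all tested features did not. Against Label_Input, 1 was called higher and 2 lower, where 14.2% and 14.6% of all tested features were, and 3 did not overlap, where 39.6% did not. The median was -0.05 against -0.02 over all tested features, so that the 8 genes were near the background in that comparison. In NonLabel_Enrich against Label_Input, 3 were called higher and 0 lower, where 14.8% and 14.7% of all tested features were, and 4 did not overlap, where 38.8% did not. The median there was 0.27 against -0.02. These 3 comparisons share their libraries in pairs, so the values stand side by side and are not independent of each other. For each gene the exact permutation test over 3 against 3 libraries cannot go below 0.1, which every non-overlapping pair of groups reached.

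**Figure D3:**
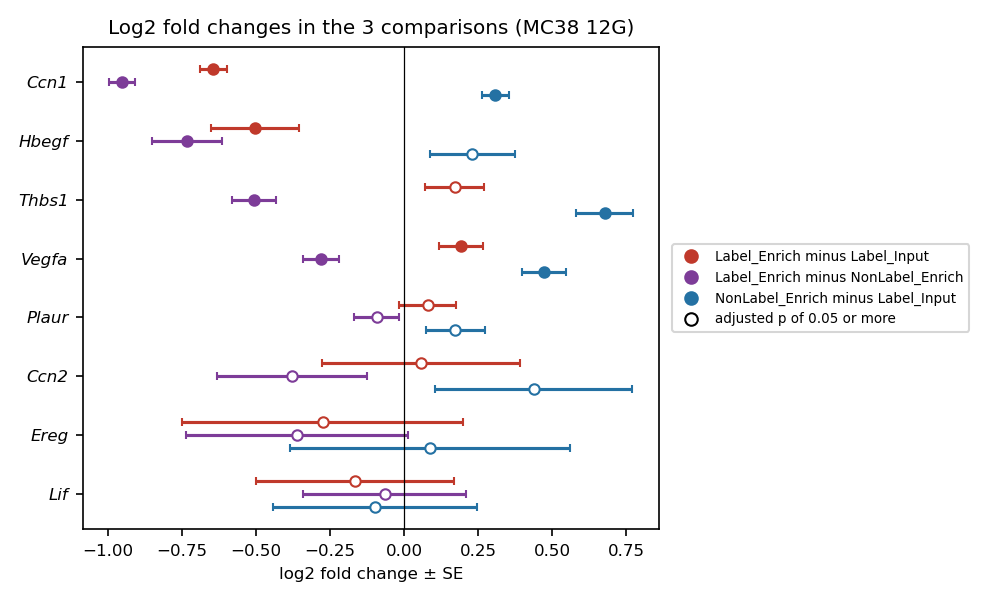
Log2 fold change ± SE (horizontal axis) of the 8 genes in the 3 comparisons, with filled points where the edgeR adjusted p is under 0.05. All 8 genes lie below 0 in Label_Enrich minus NonLabel_Enrich, from -0.95 for Ccn1 to -0.07 for Lif, and 4 of them are filled; the open points of Ereg, Lif and Plaur change sign under some alternatives.

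Since levels in CPM grow with the length of a message, genes were compared with each other per kb of the transcript used. In Label_Input, Ccn1 stood at 108 ± 4.07 CPM per kb (SD, n = 3). Plaur at 9.83 ± 2.03 and Vegfa at 9.33 ± 0.775 CPM per kb followed and did not differ beyond their spread. Hbegf at 3.19 ± 0.0435 lay above Thbs1 at 2.39 ± 0.516, and below these came Ccn2 at 0.573 ± 0.255, Lif at 0.394 ± 0.0978 and Ereg at 0.176 ± 0.0928. Ccn2 and Lif overlapped within 1 SD, while Hbegf and Thbs1, and Lif and Ereg, did not. In Label_Enrich the order of Hbegf and Thbs1 was exchanged, at 2.23 ± 0.360 and 2.67 ± 0.132 CPM per kb, with overlapping spreads, and in NonLabel_Enrich they stood at 3.75 ± 0.430 and 3.78 ± 0.130. Vegfa stood above Plaur in both captures, at 10.7 ± 0.271 against 10.5 ± 0.528 CPM per kb in Label_Enrich, within their spread, and at 13.0 ± 0.524 against 11.2 ± 0.421 in NonLabel_Enrich, beyond it.

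Ratios between genes within a library depend on how libraries are scaled only through a prior count of 2, which is scaled with library size. A few were taken after the values had been seen. Ccn1 was 3.97 ± 0.344 log2 units above Thbs1 in Label_Input, 3.60 ± 0.0665 in NonLabel_Enrich and 3.15 ± 0.0617 in Label_Enrich, where all 3 libraries lay below the 6 others. Over Vegfa, Ccn1 stood at 3.08 ± 0.0673, 2.91 ± 0.0253 and 2.23 ± 0.0239 log2 units in the same order, without overlap. Hbegf relative to Vegfa was at -1.75 ± 0.109, -2.004 ± 0.146 and -2.47 ± 0.253. Since the pairs were picked for the levels already given, these ratios describe the same observation on another scale and carry no test.

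Early-response genes of nuclear and cytosolic proteins were lower in the labelled capture in most cases. Of 31 such genes, all measured, 23 were lower and 2 higher than in the input, and 29 were lower and 0 higher than in the unlabelled capture, with median log2 fold changes of -0.74 and -1.02. In NonLabel_Enrich against Label_Input, 19 of the 31 were higher and 4 lower. Their median there was 0.27, as for the 8 genes, so a higher level in the unlabelled capture was not particular to those 8. Egr1, a zinc finger transcription factor, was at 69.0 ± 1.54 CPM in Label_Enrich, 138 ± 5.76 in Label_Input and 167 ± 3.48 in NonLabel_Enrich. Its log2 fold change against the unlabelled capture was -1.28 ± 0.05 (edgeR adjusted p = 2.38e-33), against -1.36 ± 0.06 for Ier2 (edgeR adjusted p = 2.89e-30) and -1.39 ± 0.05 for the phosphatase Dusp1 (edgeR adjusted p = 6.76e-32). Jund, a partner of Fos proteins, had -0.21 ± 0.10 and was called in no comparison. Ccn1 at -0.95 lay near the median of these 31 genes, and Hbegf, Thbs1 and Vegfa lay above it. Within libraries, Ccn1 was 1.02 ± 0.0445 log2 units above Egr1 in Label_Enrich, 0.66 ± 0.0375 in Label_Input and 0.69 ± 0.0313 in NonLabel_Enrich.

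Other stimulus-induced genes whose proteins are made at the ER formed a further list, with 13 of 18 measured. Of these, 4 were higher and 4 lower in Label_Enrich than in NonLabel_Enrich, and 2 higher and 4 lower than in Label_Input, with medians of -0.16 and -0.30. Over the alternatives the first of these medians ran from -0.23 to 0.07, changing sign, and the second from -0.40 to -0.08, the latter without Label_Input replicate 1. It was -0.16 without Label_Enrich replicate 2. Against NonLabel_Enrich, 3 to 4 of these genes were called higher and 2 to 4 lower over the alternatives. The chemokine Ccl2 was at 28.9 ± 0.755 CPM in Label_Enrich, 37.6 ± 1.04 in Label_Input and 21.3 ± 0.835 in NonLabel_Enrich, and Ccl7 likewise lay between the others, at 22.04 ± 1.78, 33.8 ± 1.81 and 18.4 ± 0.454 CPM. For both, the unlabelled capture had the lowest mean, whereas it had the highest for Ccn1, Hbegf, Thbs1 and Vegfa. It also had the highest mean for the 4 genes of this list called lower against it in the main fit. Tnfrsf12a, the TWEAK receptor, had -0.08 ± 0.06 in Label_Enrich against NonLabel_Enrich and was called in no comparison.

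**Figure D4:**
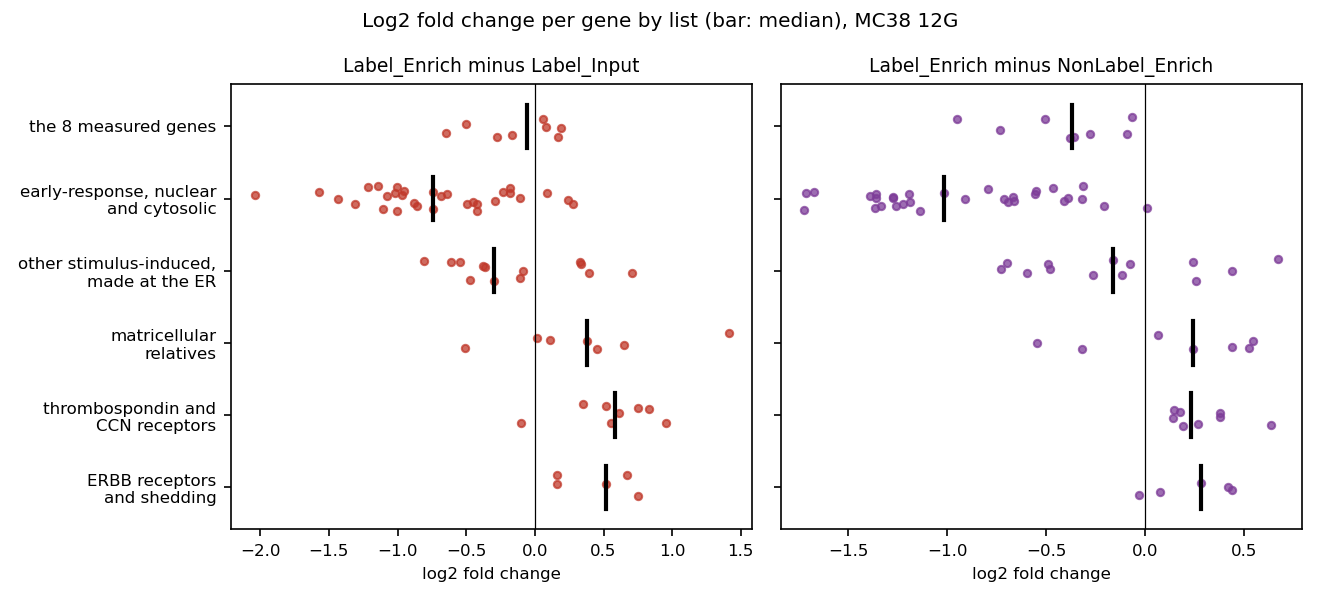
Log2 fold change of each measured gene (points, horizontal axis) in 6 lists, with the median as a black bar, for Label_Enrich minus Label_Input and Label_Enrich minus NonLabel_Enrich; the vertical scatter within a list carries no value. Against NonLabel_Enrich the 8 genes have a median of -0.37. The nuclear and cytosolic early-response genes lie at -1.02, the other stimulus-induced genes made at the ER at -0.16 and the matricellular relatives at 0.24.

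By the shape of their levels over the 9 libraries, the genes fell near different neighbours. Likeness was the root-mean-square difference of log2 CPM, each gene centred on its own mean, over named genes averaging 10 CPM or more, and it is given as a description. Nearest to Ccn1 were Junb (0.0465), Gadd45g (0.0623) and Errfi1 (0.0932), where the median over all 4341 candidates was 0.434. Nearest to Hbegf were Zfp36l1 (0.0760), Ier5 (0.117) and Ppp1r15a (0.133). Thbs1 had Irs1 (0.0863), Adamts1 (0.103) and Fam168b (0.110). Vegfa had Ehd4 (0.0544), Trio (0.0567) and Dpysl3 (0.0607), and Plaur had Hnrnpll (0.0608), Eif4enif1 (0.0725) and Helz (0.0727). For Ccn2, Ereg and Lif the nearest gene was no closer than 0.254, 0.415 and 0.287, at levels where counting error is large.

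The letters of the message gave the genes a feature shared with many others. Of the 10524 tested genes with a reading frame, 1736 (16.5%) had a start at least as hydrophobic as Vegfa, the least hydrophobic of the 9. Of these 1736, 28.5% were called higher and 4.15% lower in Label_Enrich than in NonLabel_Enrich, with a median of 0.15. Among the 8788 genes below that value, 7.81% were higher and 10.5% lower. The 8 measured genes, all inside the hydrophobic group, had 0 higher and 4 lower. Against the input, 29.5% of the hydrophobic group were higher and 7.37% lower, where the 8 genes had 1 and 2. Within the hydrophobic group, 859 genes had an ATTTA density of at least 1.24 per kb, the lowest of the 9 genes, and 861 a lower one, while 16 had a 3′ UTR too short for a density. Of the 859, 28.5% were higher and 4.77% lower than in the unlabelled capture, against 28.6% and 3.37% of the 861. Against the input the shares were 29.3% and 5.47% in the former and 30.0% and 8.83% in the latter, and the differences were not tested. Both limits were set by the genes themselves, after their sequences had been read, so that these shares are descriptions.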

How the data were processed

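Counts per gene were deposited by the authors as whole-number tables, 1 column per library. Per the submitters' processing notes, the tools were HISAT2 2.1.0, cutadapt 1.18, DESeq2 1.16.1 and HTSeq 0.7.2, with GRCm39 for mouse. No source used here states the strand setting or filters. The 3G set of MC38 held 67.8% to 68.9% of the 12G counts, with 0 features above 12G in any library, so it is no independent repeat.

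All 9 MC38 12G libraries were fitted together with edgeR 4.0.16 (R 4.3.3; filterByExpr, TMM, quasi-likelihood F test, Benjamini-Hochberg over 11676 features, threshold 0.05), and the genes' rows were read from that fit. The SE of a log2 fold change is its size divided by the square root of F. The fit was tested on simulated data. Levels are CPM, mean ± SD of 3 libraries, and the limits given for 0 counts cover counting error only. Gene symbols matched 52073 of 56691 mouse IDs. None of the 57992 features of the HEK293T table could be paired with a name, so the human orthologues were not analysed here.

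Sequence features come from the longest GENCODE M21 transcript with a complete reading frame. This replaced the longest reading frame after the Vegfa 3′ UTR of the latter was seen to be very short. The genes and lists were chosen with earlier results of these data known. From each other list, up to 3 genes with the smallest p over the comparisons and the most abundant gene called in none were named, apart from genes that are not reported here. Egfr, outside that rule, was named after its value was seen. The main fit did not pair libraries by replicate number. Alternatives were DESeq2 1.42.0, RLE factors, no or a stricter low-count filter (mean of 5 CPM), removal of the 2 most abundant features, the 2 groups alone, a replicate block, the 3G counts and leaving out each library.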

Additional observations from a re-analysis of the deposited data

How the results depend on the processing

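Of 395 values of the 8 genes under the 17 alternatives, 368 kept their direction and their side of the threshold, 7 lost a call, 3 gained one and 17 changed sign, 0 of the latter among called differences. The changes of call stand beside Thbs1, Hbegf, Vegfa and Plaur in the report. The number of called genes stayed within 1.5 times in each comparison, and so did the number of the 8 genes called. With no low-count filter the scaling moved the median log2 fold change by 0.10 in Label_Enrich against Label_Input, and the split became 2228 higher and 1177 lower (from 1654 and 1700). It became 1297 and 760 (from 1218 and 1124) in Label_Enrich against NonLabel_Enrich, and 2047 and 1237 (from 1727 and 1713) in NonLabel_Enrich against Label_Input. With the 3G counts, signs changed for Plaur (0.0213) and Lif (0.0045) in Label_Enrich against NonLabel_Enrich and for Ereg (-0.27) in NonLabel_Enrich against Label_Input. Leaving out 1 library at a time gave ranges across 0 for Ccn2 (-0.18 to 0.44), Lif (-0.34 to 0.0503) and Plaur (-0.0165 to 0.27) in Label_Enrich against Label_Input, for Ereg (-0.67 to 0.12) and Lif (-0.29 to 0.43) in Label_Enrich against NonLabel_Enrich, and for Ereg (-0.40 to 0.40) and Lif (-0.60 to 0.13) in NonLabel_Enrich against Label_Input. The cause of these changes was not tested. Deviations of same-numbered libraries from their group means correlated at -0.0115 to 0.0200 over 9 pairs, others at -0.0233 to 0.0153. Counting error enters every deviation, so values near 0 cannot show that a pairing is absent. The labels do not say whether same-numbered libraries share cells. With the replicate number as a block, 3346, 2375 and 3432 genes were called in the 3 comparisons in the order used above (3354, 2342 and 3440 without), and 3, 4 and 3 of the 8 genes. DESeq2 gave no adjusted p for Ccn2, Ereg and Lif in Label_Enrich against NonLabel_Enrich, and alternatives for HEK293T were not run. Depth limits Ccn2, Ereg and Lif, at 2 to 53 counts per library, the most.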
